A study of Mus musculus with 6 samples.

Results

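The genes described here are the classical Fc receptors of the mouse and the ITAM adaptors they signal through. They are the adaptors *Fcer1g* and *Tyrobp*, the IgG receptor chains *Fcgr1*, *Fcgr2b*, *Fcgr3* and *Fcgr4*, the neonatal Fc receptor *Fcgrt* and the IgE receptor chain *Fcer1a*. They were taken by gene symbol and make up 8 of the 49315 genes counted. They were measured by bulk RNA-seq in Tregs of neonatal mice, the regulatory CD4+ T cells that are defined by the transcription factor *Foxp3*. All samples carried the same genotype, Foxp3-GFP, a reporter in which cells that express *Foxp3* are green, and the labels give no treatment. The skin Treg group held 3 libraries of cells sorted from skin, and the SDLN Treg group held 3 libraries of cells sorted from skin-draining lymph nodes (SDLNs). The mice were 9 days old, and cells of several mice were pooled into each sample. Skin was digested with enzymes while nodes were mashed, so tissue and preparation cannot be told apart. The study used the comparison to look for what Tregs in skin express more than Tregs in the nodes.

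Fc receptors bind the constant part of antibodies and so let a cell respond to what an antibody has bound. Most of the activating ones carry no signalling motif of their own. They pair with a small adaptor chain whose tail carries an ITAM (immunoreceptor tyrosine-based activation motif), a pair of tyrosines that Src family kinases phosphorylate and that the kinases Syk or Zap70 then dock on. *Fcgr2b* carries the opposite kind of motif, an ITIM, which recruits phosphatases. These receptors are best known from macrophages, dendritic cells, mast cells, neutrophils and NK cells, whereas T cells signal through the ITAMs of the CD3 and zeta chains of their antigen receptor.

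Total counts ranged from 3748669 to 11741784 in skin libraries and from 47243498 to 116158706 in SDLN libraries. Levels are given as CPM, which is counts scaled to the total of their library. Where a sentence gives 3 values for a tissue, they stand in the order of libraries A, B and C. Genes with no more than 3 counts are said to be at the floor, which is 0.255 to 0.800 CPM in skin and 0.0258 to 0.0635 CPM in SDLN libraries. Skin libraries held fewer genes, 2911 to 5317 at 1 CPM or more against 12397 to 13002. The defining markers of the labelled cells were uneven in skin, where *Foxp3* had 0, 330 and 1 counts and *Cd4* had 0, 1861 and 2. In SDLN Tregs *Foxp3* had 12208, 10133 and 1788 counts. In bulk samples, fewer cells of a type and less RNA per cell cannot be told apart.

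The feature that joins the adaptors is the ITAM. Below is the coding DNA that spells it in each, 5′ to 3′, with the codons of the ITAM's tyrosines in capitals. These 45 bases run from codon 65 of 86 in *Fcer1g* (transcript Fcer1g-201, chr1:171229889-171230072, minus strand) and from codon 92 of 114 in *Tyrobp* (Tyrobp-201, chr7:30415670-30417382, plus strand), build GRCm38. In both genes the stretch is split over 2 exons.
*Fcer1g* ITAM: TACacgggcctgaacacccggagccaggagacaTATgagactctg
*Tyrobp* ITAM: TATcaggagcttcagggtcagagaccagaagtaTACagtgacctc
The motif was searched as a tyrosine, any 2 residues, leucine or isoleucine, then 6 to 8 residues and the same unit again. The translated transcripts Fcer1g-201 and Tyrobp-201 held 1 match each, as did those numbered 201 of *Cd3d*, *Cd3e*, *Cd3g*, *Cd79a* and *Cd79b*. *Cd247*, which encodes the zeta chain, held 3 in its transcript 201 and 2 in each of its other complete coding sequences, and Fcer1g-203 held 0. None was found in the annotated coding sequences of *Fcgr1*, *Fcgr2b*, *Fcgr3*, *Fcgr4*, *Fcgrt* or *Fcer1a*.

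*Fcer1g* encodes the common gamma chain, the adaptor of the activating IgG receptors and of the IgE receptor. It lies at chr1:171229572-171234365 on the minus strand. It had 1048, 3347 and 2578 counts in skin and 278, 227 and 128 counts in SDLN. As CPM this was 280, 285 and 285 in skin against 2.39, 3.12 and 2.71 in SDLN, so every skin library lay far above every SDLN library. The lowest skin value was 89.7 times the highest SDLN value. Mean levels were 283 ± 3.27 CPM and 2.74 ± 0.363 CPM (SD, n = 3 each), a ratio of 103. The fitted log2 fold change, skin over SDLN, was 6.70 (SE 1.05, adjusted p = 0.00395, edgeR quasi-likelihood test over all genes). With every library drawn down to 3748669 counts, skin libraries held 1040 to 1088 counts of *Fcer1g* and SDLN libraries 10 to 14.

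**Figure D1:**
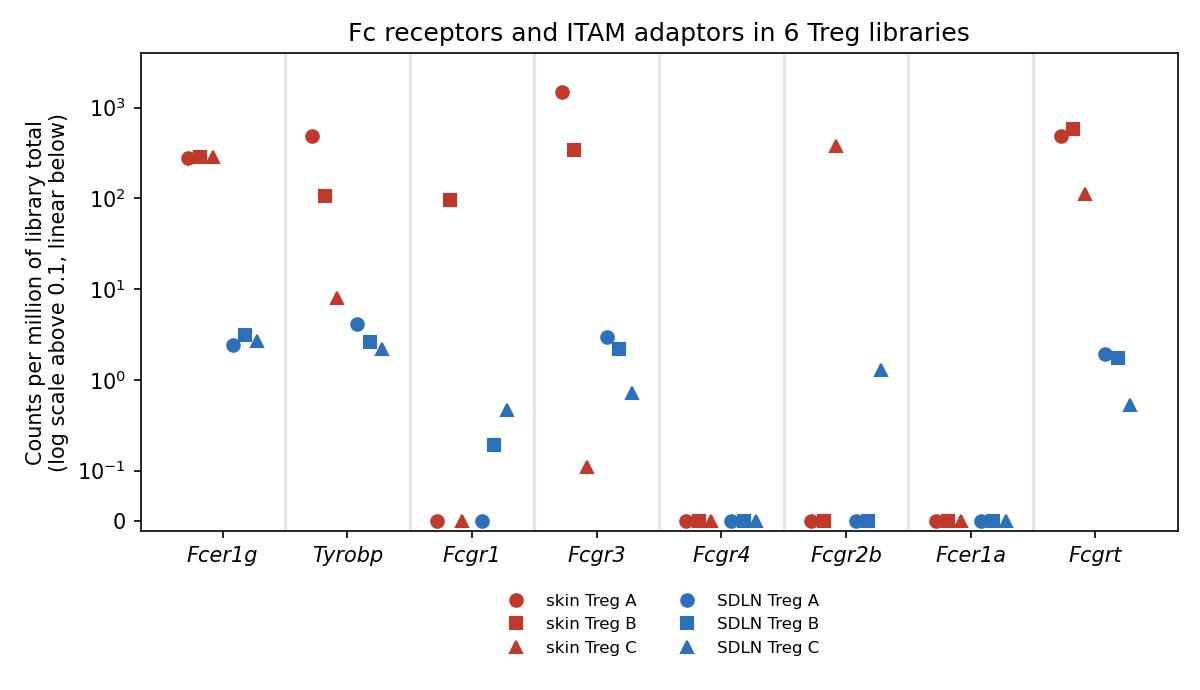
Level of each of the 8 genes in each library, in CPM on an axis that is logarithmic above 0.1 and linear below it. Red marks are skin Treg libraries, blue marks SDLN Treg libraries, and shapes give the library letter (A circle, B square, C triangle). *Fcer1g* sits at 280 to 285 in all skin libraries, *Fcgr1* and *Fcgr2b* are high in 1 skin library each, and *Fcgr4* and *Fcer1a* are at 0 throughout.

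The level of *Fcer1g* was also unusually even between skin libraries. Its coefficient of variation (CV, SD over mean) in skin was 1.15%. Among the 2211 genes with a skin mean of 100 to 1000 CPM the median CV was 94.2%, and 54% of them were at the floor in at least 1 skin library. *Fcer1g* had the lowest CV of these genes, a rank noticed after its values were seen. Counting error alone gives a relative SD of 1.73% to 3.09% for its counts in these libraries, so the small CV is not a measure of how precisely the level is known. The other genes of the family with a skin mean in that range were spread more widely, with CVs of 63.3% for *Fcgrt*, 127% for *Tyrobp*, 128% for *Fcgr3* and 173% for *Fcgr2b*.

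**Figure D2:**
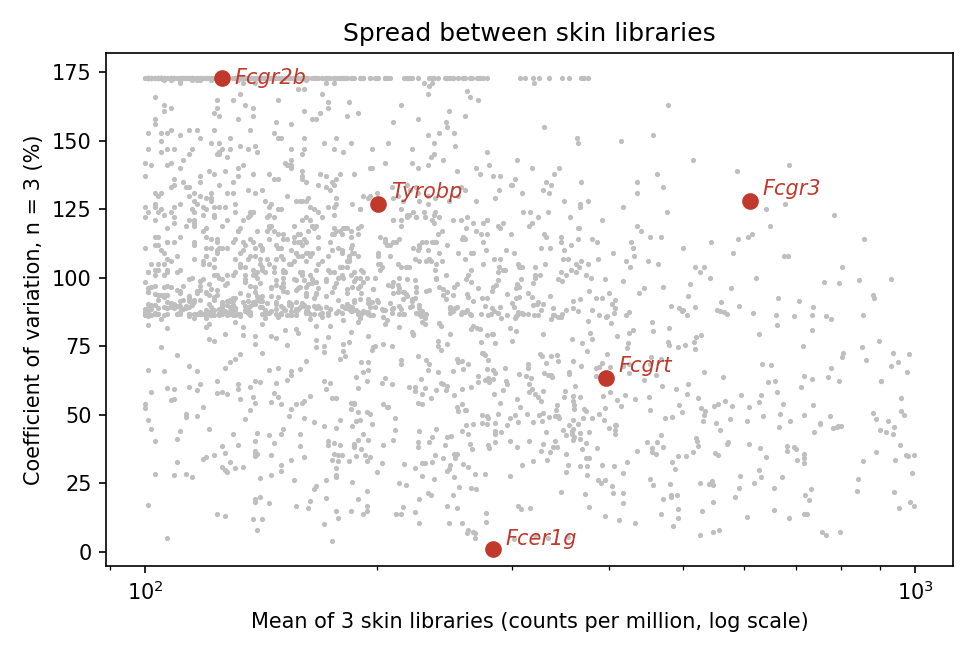
Mean of the 3 skin libraries (CPM, log scale) against the coefficient of variation between them (%), for the 2211 genes with a skin mean of 100 to 1000. Grey points are genes, and red points are the 5 Fc receptor and adaptor genes in that range. *Fcer1g* lies at the bottom at 1.15%, and the line of points at the top at 173% is made of genes found in 1 skin library only.

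*Tyrobp* encodes DAP12, the adaptor of many activating receptors of myeloid and NK cells. It lies at chr7:30413760-30417585 on the plus strand. It had 1836, 1235 and 72 counts in skin, or 490, 105 and 7.97 CPM. SDLN had 483, 191 and 104 counts, or 4.16, 2.62 and 2.20 CPM. The groups did not overlap, but skin Treg C was only 1.92 times the highest SDLN library, while skin Treg A was the highest of all. Means were 201 ± 255 and 2.99 ± 1.03 CPM (SD, n = 3 each), and the log2 fold change was 5.68 (SE 1.82, edgeR adjusted p = 0.0466). The call was lost in 7 of 17 alternative settings, among them the omission of any 1 SDLN library (adjusted p of 0.179 to 0.199).

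The balance of the adaptors therefore differed from library to library. Levels of different genes are compared per length, as CPM per kb of exon. On that scale *Fcer1g* was 0.436 times *Tyrobp* in skin Treg A, 2.07 times in skin Treg B and 27.3 times in skin Treg C. In SDLN Tregs the ratio was 0.439, 0.907 and 0.939. The pair summed to 1054, 484 and 339 CPM per kb in skin and to 8.97, 7.5 and 6.4 in SDLN Tregs. The CD3 chains and zeta together gave 442, 478 and 433 CPM per kb in skin and 1120, 1038 and 1099 in SDLN. *Fcer1g* and *Tyrobp* thus made up 70.5%, 50.3% and 43.8% of all ITAM chains in skin, and 0.764%, 0.695% and 0.551% in SDLN Tregs.

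**Figure D3:**
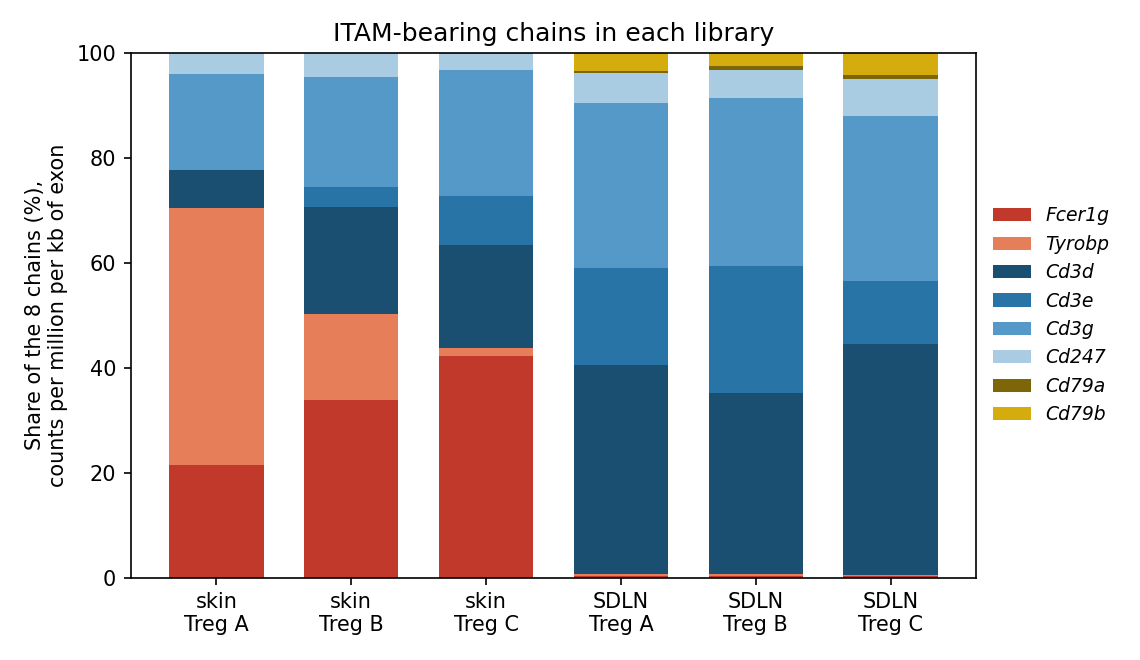
Share (%) of each of 8 ITAM-bearing chains in their sum, from CPM per kb of exon, in 1 stacked bar per library. Red and orange are *Fcer1g* and *Tyrobp*, blues are *Cd3d*, *Cd3e*, *Cd3g* and *Cd247*, and yellows are the B cell receptor chains *Cd79a* and *Cd79b*. *Fcer1g* and *Tyrobp* fill 43.8% to 70.5% of the skin bars and under 0.8% of the SDLN bars, whose red band is barely visible.

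Each chain of the T cell receptor was nearer to parity between tissues than the adaptors were, and in this fit none of the 4 passed the test. *Cd3g* had 607 to 888 CPM in skin and 1132 to 1209 in SDLN (log2 fold change -0.77, edgeR adjusted p = 0.0673). *Cd3d* had a log2 fold change of -1.53 (adjusted p = 0.0602) and *Cd247* one of -0.84 (adjusted p = 0.336). Without skin Treg A, *Cd3d* and *Cd3g* passed as lower (-1.37, adjusted p = 0.0118, and -0.89, adjusted p = 0.013), and without skin Treg C, *Cd3g* did (-0.95, adjusted p = 0.0369). With all libraries kept, DESeq2 called both lower (adjusted p of 0.000259 and 1.33e-06). *Cd3e* had 0, 1757 and 2646 counts in skin and was thus at the floor in 1 of them. With *Cd79a*, *Cd79b* and *Hcst* (DAP10) added to these 4 chains, edgeR called 0 of the 7 higher and 1 lower in skin, against 1.04% and 45.3% of all genes tested. *Cd79a*, of the B cell receptor, was the lower one, at 0 counts in all skin libraries and 7.05 to 12 CPM in SDLN (adjusted p = 0.00322). At an unadjusted p under 0.05 the numbers were 0 and 3, with DESeq2 0 and 4, and with limma voom 0 and 2. The median log2 fold change of the 7 was -1.53, which is the value of *Cd3d*.

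*Fcgr3* encodes the activating low-affinity IgG receptor FcγRIII, which needs *Fcer1g*. It lies at chr1:171051174-171064935 on the minus strand. It had 5578, 3993 and 1 counts in skin, or 1488, 340 and 0.111 CPM, and 340, 158 and 34 counts in SDLN, or 2.93, 2.17 and 0.720 CPM. It was very high in skin Tregs A and B, and its single count in skin Treg C put that library below every SDLN library, so the groups overlapped. The log2 fold change was 7.92 (SE 2.75) and did not pass the test (edgeR adjusted p = 0.0634). It passed in 2 of the 16 alternatives that tested it, with DESeq2 (8.18, adjusted p = 1.58e-05) and without skin Treg C (8.38, adjusted p = 0.00512), while limma voom gave 2.75 (adjusted p = 0.459).

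The other chains were found in single skin libraries. *Fcgr1*, the high-affinity activating receptor FcγRI (chr3:96282909-96293969, minus strand), had 1124 counts (95.7 CPM) in skin Treg B and 0 in skin Tregs A and C. In SDLN it had 0, 14 and 22 counts, at most 0.466 CPM. *Fcgr2b*, the inhibitory receptor FcγRIIB (chr1:170958617-170976547, minus strand), had 3418 counts (378 CPM) in skin Treg C and 0 in the other skin libraries, and 61 counts (1.29 CPM) in SDLN Treg C and 0 in the other SDLN libraries. The floor of 3 counts stands at 0.800 CPM in skin Treg A and at 0.255 CPM in skin Treg B. *Fcgr4*, the activating receptor FcγRIV (chr1:171018920-171029761, plus strand), was at 0 in all 6 libraries. None of these passed the filter on low counts, so that fit gave them no test. *Fcgr1* was tested in 3 alternatives (log2 fold change 7.15 to 7.73, adjusted p of 0.133 to 0.275) and *Fcgr2b* in 5 (7.84 to 9.01, adjusted p of 0.204 to 0.562), and neither was called in any of them. Of the 2211 genes with a skin mean of 100 to 1000 CPM, a range that holds *Fcgr2b* but not *Fcgr1*, 11.8% were over the floor in just 1 skin library.

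The IgG receptor chains over the floor differed between skin libraries, where such gaps were common. Of the 2211 genes with a skin mean of 100 to 1000 CPM, 54% were at the floor in at least 1 skin library. Skin Treg A had *Fcgr3* alone over the floor, skin Treg B had *Fcgr3* and *Fcgr1*, and skin Treg C had *Fcgr2b* alone. Per length, *Fcgr3* stood at 857 CPM per kb in skin Treg A and 196 in skin Treg B, *Fcgr1* at 37.0 in skin Treg B and *Fcgr2b* at 65.4 in skin Treg C. Summed over the chains this was 857, 233 and 65.4 CPM per kb in skin and 1.69, 1.32 and 0.817 in SDLN. In SDLN Tregs the number of chains over the floor was 1, 2 and 3 in libraries A, B and C.

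**Figure D4:**
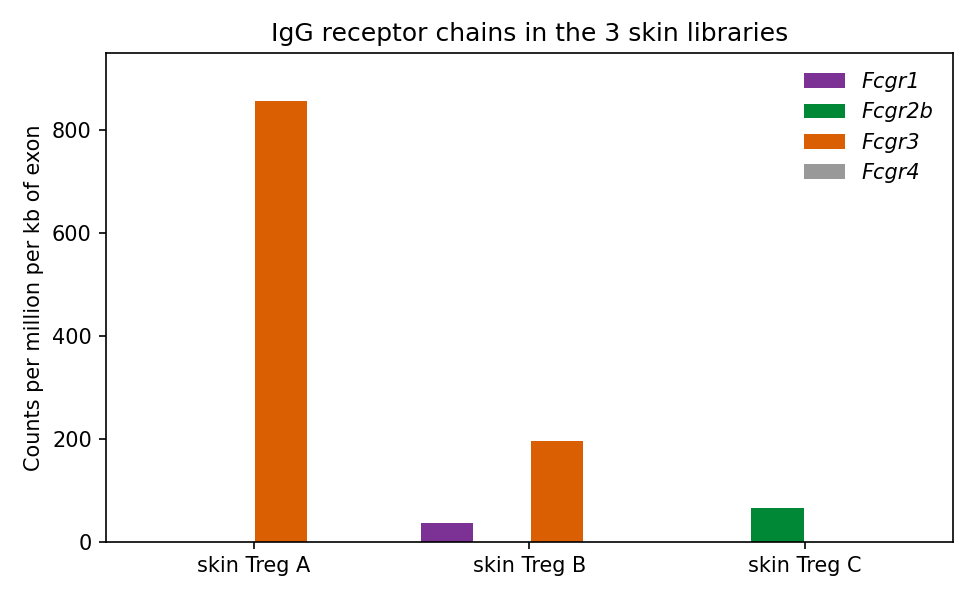
Level of the 4 IgG receptor chains in each skin Treg library, in CPM per kb of exon, on a linear axis from 0. Orange *Fcgr3* bars stand at 857 and 196 in libraries A and B, the purple *Fcgr1* bar at 37.0 in library B and the green *Fcgr2b* bar at 65.4 in library C, and every chain with no bar had 1 count or none.

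*Fcgr2b* and *Fcgr3* are close relatives that lie near each other, so reads could in part fit both. Of the windows of 50 bases in the annotated transcripts of *Fcgr3*, 10.2% were also found in *Fcgr2b*, against 4.48% of those of *Fcgr2b*. No such window was shared with *Fcgr1* or *Fcgr4*. At 150 bases, the length of the reads, no window was shared. In skin Treg A, *Fcgr3* had 5578 counts and *Fcgr2b* 0, and in skin Treg C *Fcgr2b* had 3418 and *Fcgr3* 1. An antisense transcript, *Gm38204*, covers 155 exon bases (2.68%) of *Fcgr2b* and had 0 counts in every library. The other genes of the family share no exon bases with another annotated gene.

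The start regions of these genes were searched for GAGGAAG on both strands, the core of sites bound by the myeloid and B cell factor *Spi1* (PU.1), since several of the receptors are known as myeloid genes. Of the 250 bases before the RefSeq start (GRCm38.p6), 3 of the 7 members with a sequence (*Tyrobp* had none) held it, *Fcgr1*, *Fcgr3* and *Fcgr4*, against 12% of all 27025 genes. The stretches below run 5′ to 3′ on the gene's strand with the match in capitals, which reads as the reverse complement, CTTCCTC.
*Fcgr1*, chr3:96293993-96294052: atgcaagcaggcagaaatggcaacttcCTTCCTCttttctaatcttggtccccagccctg
*Fcgr3*, chr1:171059395-171059454: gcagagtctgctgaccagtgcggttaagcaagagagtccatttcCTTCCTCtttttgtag
*Fcgr4*, chr1:171018866-171018925: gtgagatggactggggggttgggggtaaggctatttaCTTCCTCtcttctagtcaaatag
*Fcgr4*, at 0 counts throughout, holds the same letters as the others. *Fcer1g*, *Fcgrt*, *Fcgr2b* and *Fcer1a* did not hold them in this window. RefSeq and GENCODE starts differ, and the windows searched for *Fcgr3* and *Fcgr2b* lie wholly inside the GENCODE spans given above.

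*Fcgrt* encodes the heavy chain of the neonatal Fc receptor FcRn, which carries IgG across cells and saves it from breakdown, and needs no ITAM. It lies at chr7:45092990-45103851 on the minus strand. It had 1834, 6896 and 1013 counts in skin, or 489, 587 and 112 CPM. SDLN had 226, 128 and 25 counts, or 1.95, 1.76 and 0.529 CPM. All skin libraries lay above all SDLN libraries, and the lowest skin value was 57.6 times the highest SDLN value. Means were 396 ± 251 and 1.41 ± 0.769 CPM (SD, n = 3 each), a ratio of 281. The log2 fold change was 8.04 (SE 1.27, edgeR adjusted p = 0.00405). *B2m*, the light chain that FcRn shares with MHC class I, had 1856 to 3020 CPM in skin and 1502 to 3015 in SDLN (log2 fold change -0.01, adjusted p = 0.994).

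*Fcer1a*, the chain of the high-affinity IgE receptor that binds IgE (chr1:173221284-173227214, minus strand), had 0 counts in all 6 libraries. Its partner *Ms4a2*, the beta chain of that receptor, had 1 count in all, in SDLN Treg A. Of the IgE receptor only the shared chain *Fcer1g* was therefore over the floor.

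In the fit over all 13572 genes tested, edgeR called 3 of the 4 members tested higher in skin (*Fcer1g*, *Tyrobp* and *Fcgrt*) and 0 lower. Over all genes tested, 141 were called higher (1.04%) and 6142 lower (45.3%). At an unadjusted p under 0.05 all 4 members tested were higher and 0 lower, DESeq2 called 4 higher and 0 lower, and limma voom 3 and 0. The median log2 fold change of the 4 was 7.31, against -2.21 over all genes tested. Of all genes tested 5878 were at the floor in every skin library, and with such genes set to the bound that the floors allow, the median over all genes was -1.29. *Fcer1g* and *Fcgrt* were called in 17 of 17 alternatives, with adjusted p of 2.16e-71 to 0.032 and 2.25e-19 to 0.0305, but neither was called in a further fit, added after seeing the data, with the column letter as a replicate block (adjusted p of 0.187 and 0.0584).

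**Figure D5:**
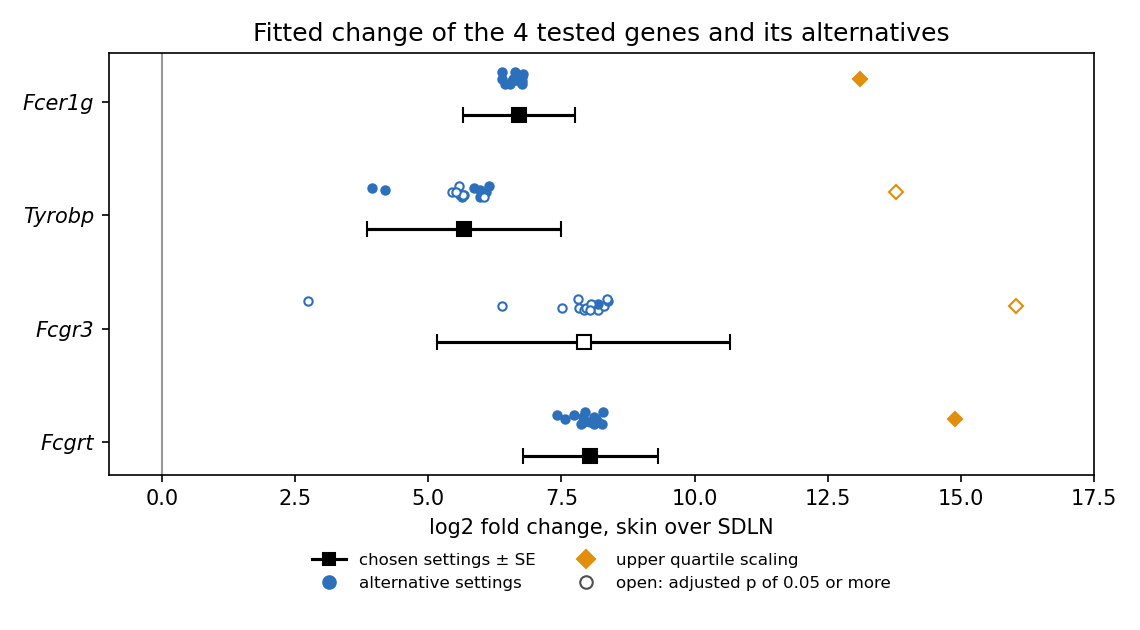
Log2 fold change, skin over SDLN, of the 4 genes that passed the filter on low counts. Black squares are the values given in the text with their SE, blue circles the alternative settings and orange diamonds upper quartile scaling, and open marks have an adjusted p of 0.05 or more. Every value is above 0, upper quartile scaling gives 13.11 to 16.03, and *Tyrobp* and *Fcgr3* have open and filled marks. The fit with a letter block is not drawn.

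Of 27 receptors known to pair with *Fcer1g* or *Tyrobp*, 20 had 0 counts in all skin libraries, 8 of them in all 6 libraries. Of all genes counted, 77.3% had 0 counts in all skin libraries and 49.5% in all 6. Of the 27, 5 were tested, of which 1 was called higher and 2 lower, with a median log2 fold change of 5.49, and the 2 were at the floor in every skin library. The shares over all genes tested were 1.04% and 45.3%. *Cd300ld*, an activating receptor of the CD300 family, had 896, 191 and 14.1 CPM in skin and at most 0.699 CPM in SDLN and was called higher by a narrow margin (log2 fold change 10.11, SE 3.27, edgeR adjusted p = 0.0498). Leaving out skin Treg A, skin Treg B, SDLN Treg A or SDLN Treg B ended that call (adjusted p of 0.0706 to 0.116). Its order across skin libraries was that of *Tyrobp*. Several others were again found in single skin libraries. *Clec4d*, a C-type lectin, had 846 counts in skin Treg A and 0 in the other skin libraries. *Clec5a*, a lectin that pairs with DAP12, had 1935 and *Pilrb2* 1106 in skin Treg C, and both had 0 in the other skin libraries. *Clec4n* (Dectin-2), which pairs with *Fcer1g*, had 106, 89.0 and 0.886 CPM in skin and 0.430 to 2.23 in SDLN (adjusted p = 0.0604). *Cd300c2* had 0, 876 and 1078 counts in skin (adjusted p = 0.0953).

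The signalling chain below the ITAM was examined in 34 genes. Of 33 tested, edgeR called 0 higher and 11 lower in skin, 9 of these at the floor in every skin library. Of all genes tested, 45.3% were called lower. Of the 33, 1 was higher and 11 were lower at an unadjusted p under 0.05, with DESeq2 2 and 12, and with limma voom 1 and 10. The median log2 fold change of the list was -0.96. *Syk*, the kinase that docks on the ITAMs of *Fcer1g* and *Tyrobp*, had 178 counts in skin Treg A and 0 in skin Tregs B and C, against 3.87 to 6.16 CPM in SDLN (adjusted p = 0.84). *Lyn*, a Src family kinase and the 1 gene with an unadjusted p under 0.05 in the higher direction, was chosen after its values were seen. It had 371, 64.9 and 286 CPM in skin and 17.4 to 24.1 in SDLN. Its log2 fold change was 3.40 (SE 1.12) and narrowly missed the threshold (edgeR adjusted p = 0.0514), and it passed without skin Treg B (3.82, adjusted p = 0.015). *Rac2*, a GTPase that drives actin, was lower in skin, with 612 to 1294 CPM against 1618 to 1934 (log2 fold change -0.96, SE 0.244, adjusted p = 0.0191). It did not pass without SDLN Treg A (adjusted p = 0.126) or SDLN Treg B (adjusted p = 0.0854). *Lck*, the Src family kinase of T cells, had 291 to 1042 CPM in skin and 1606 to 3106 in SDLN (adjusted p = 0.159). The adaptors *Lat* and *Lcp2* were at the floor in skin Treg A.

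On the inhibitory side, 25 ITIM receptors, phosphatases and Dok adaptors were examined. Of 20 tested, 1 was called higher and 7 lower, the latter all at the floor in every skin library. Of all genes tested, 1.04% were called higher and 45.3% lower. The gene of the 20 called higher was *Clec4a2* (DCIR), an ITIM lectin of myeloid cells, with 735, 200 and 97.3 CPM in skin and 0.0824 to 0.276 CPM in SDLN (log2 fold change 10.72, SE 1.57, edgeR adjusted p = 0.00351). The lipid phosphatase *Inpp5d* (SHIP1), which *Fcgr2b* recruits, had 153 to 275 CPM in skin and 133 to 290 in SDLN (adjusted p = 0.951). The tyrosine phosphatase *Ptpn6* (SHP-1) had 0, 0 and 154 counts in skin and 356 to 384 CPM in SDLN (adjusted p = 0.201). *Pirb* had 682, 0 and 76.8 CPM in skin and at most 1.26 in SDLN (adjusted p = 0.106). *Cd200r1* had 5606 counts in skin Treg C and 0 in the other skin libraries, a pattern that *Fcgr2b* shared in skin only. In SDLN *Cd200r1* had 76.9 to 104 CPM, while *Fcgr2b* had at most 1.29. The median of the list was -2.28 as fitted and -0.83 with genes at the floor set to their bound.

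Of 13 further Fc-binding genes, 6 were tested, and edgeR, DESeq2 and limma voom each called 0 higher and 5 lower in skin, the same numbers as at an unadjusted p under 0.05. The lower ones were at the floor in every skin library, as were 5878 of the 13572 genes tested, and 45.3% of all genes tested were called lower. *Fcrl1*, an Fc receptor-like protein of B cells, had 0 counts in all skin libraries and 14.0 to 24.6 CPM in SDLN (edgeR adjusted p = 0.00336), and *Fcmr*, the IgM receptor, 0 counts and 6.15 to 7.54 CPM (adjusted p = 0.00322). *Fcrls*, a receptor-like gene of macrophages, had 1589, 0 and 2 counts in skin and 0 in SDLN. The fitted median of the 6 was -9.64, and -2.35 with genes at the floor set to their bound.

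The IgG and IgE constant genes *Ighg1*, *Ighg2b*, *Ighg2c*, *Ighg3* and *Ighe* had 0 counts in all skin libraries and at most 63 counts in any SDLN library, beside 77.3% of all genes counted that had 0 counts in all skin libraries. *Ighm* was found in every library, at 584 to 861 CPM in skin and 1418 to 1622 in SDLN, and was lower in skin (log2 fold change -1.10, SE 0.269, edgeR adjusted p = 0.0171, and 0.0631 without SDLN Treg A). Of the 8 constant genes 3 were tested, and edgeR called 0 higher and 3 lower, 2 of them at the floor in every skin library, against 45.3% lower over all genes tested. At an unadjusted p under 0.05 and with DESeq2 the numbers were 0 and 3, and with limma voom 0 and 2. The median of the 3 was -9.88 as fitted and -2.53 with genes at the floor set to their bound.

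Markers of macrophages and monocytes were mostly higher in skin, as *Fcer1g*, *Tyrobp* and *Fcgrt* were, and their part in these results was not tested. Of 16 such markers 13 were tested, and 11 were called higher in skin and 1 lower, against 1.04% and 45.3% of all genes tested. The 13 had a median log2 fold change of 6.58. All 16 summed to 8583, 6771 and 5085 CPM in skin and to 209 to 356 CPM in SDLN. *Lyz2*, lysozyme of myeloid cells, had 1057 to 1978 CPM in skin and 26.5 to 53.7 in SDLN (log2 fold change 5.19, edgeR adjusted p = 0.00322). The complement gene *C1qc* had 177 to 534 CPM in skin and 2.62 to 4.63 in SDLN (6.86, adjusted p = 0.00401). Across skin libraries A, B and C, *Lyz2* had 1978, 1520 and 1057 CPM, while *C1qc* had 177, 534 and 471. *Tyrobp* had 490, 105 and 7.97 CPM there. *Ccr2*, a chemokine receptor of monocytes that T cells express as well, had 550 to 1194 CPM in skin and 116 to 235 in SDLN (2.53, adjusted p = 0.0172), a call lost without skin Treg B, skin Treg C, SDLN Treg A or SDLN Treg C (adjusted p of 0.0542 to 0.0806). *Adgre1* (F4/80) had 845 and 636 CPM in skin Tregs A and B and 1 count in skin Treg C, as *Fcgr3* did. The macrophage marker *Mertk* had at most 2 counts in any skin library, and the monocyte marker *Ly6c2* had 0.

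Dendritic cell markers summed to 1349 to 1895 CPM in skin and 347 to 433 in SDLN, with 10 of 12 tested, 2 called higher (*Cd209a* and *Clec10a*) and 4 lower, the 4 at the floor in every skin library, and *Clec9a*, *Xcr1* and *Zbtb46* at 0 counts in skin. T cell and Treg markers summed to 6611, 10451 and 8505 CPM in skin and 11359 to 11853 in SDLN, with 1 of 14 called higher and 0 lower by edgeR, 2 higher and 3 lower by DESeq2, 0 and 2 by limma voom, and 1 and 2 at an unadjusted p under 0.05. NK and cytotoxic cell markers and basophil markers had 0 counts in every skin library, neutrophil markers summed to at most 0.800 CPM in skin, and B cell markers to at most 2.66 CPM against 57.8 to 93.5 in SDLN. Mast cell markers summed to 226 CPM in skin Treg A, nearly all of it from the protease gene *Cma1* with 811 counts, and to 0 in skin Tregs B and C, and *Tpsb2*, *Tpsab1*, *Mrgprb2* and *Gata2* were at 0 in every library. The Langerhans cell marker *Cd207* and the keratinocyte genes *Krt5* and *Krt14* were at 0 in every library. Plasmacytoid dendritic cell markers summed to 131 to 512 CPM in skin, from *Bst2* and *Tcf4*, with *Siglech* and *Ccr9* at 0. Of the markers of NK and cytotoxic cells, basophils, B cells, mast cells, plasmacytoid dendritic cells and keratinocytes, edgeR, DESeq2 and limma voom each called 0 higher in skin, and 0 were higher at an unadjusted p under 0.05. In the same order of lists, edgeR called 3 of 3, 2 of 2, 4 of 5, 2 of 3, 2 of 4 and 1 of 1 genes tested lower. All of these lower genes were at the floor in every skin library. With genes at the floor set to their bound, the list medians in that order were -3.63, -0.65, -3.60, -1.67, -0.06 and -4.13. Over all genes tested, 1.04% were called higher and 45.3% lower.

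Genes with a profile like that of the adaptors were ranked among all genes tested by the root mean square difference (RMS) of centred log2(CPM + 1) values over the 6 libraries, as a description with no test. The libraries and their difference in depth between tissues are shared by every gene ranked. Nearest to *Fcer1g* were *Klf4*, a zinc finger transcription factor (RMS 0.195), *Ms4a7*, a membrane protein of macrophages (0.339), *Grk3* (0.426), *Cd74*, the invariant chain of MHC class II (0.490), and *C1qb* of complement (0.498). *Klf4* had 87.8 to 120 CPM in skin and 0.124 to 0.381 in SDLN. Nearest to *Tyrobp*, though less close, were *Tnfsf9*, the ligand of 4-1BB (RMS 0.660), *Spi1*, which encodes PU.1 (0.706), *Tmem176b* (0.770), *Ifi204* (0.780) and *Dpep2* (0.837). *Spi1* had 399, 271 and 14.1 CPM in skin and 1.19 to 3.49 in SDLN. None of the nearest 5 was shared by both adaptors.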

How the data were processed

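The deposited values were raw counts per Ensembl gene, which the authors made from 150 bp paired reads with Trimmomatic 0.36, STAR 2.5.2b on GRCm38 and featureCounts of Subread 1.5.2, counting unique exon reads. Annotation release, strand setting and duplicate handling are not given in the sources used here, and no molecular identifiers are described, so intervals and floors cover counting error only. Live CD45+ CD4+ Foxp3-EGFP+ cells had been sorted after CD45 bead enrichment. Groups came from sample titles, since the tissue field reads skin throughout. Columns are lettered and titles numbered, with nothing to link them, so libraries are named by tissue and letter. All samples share batch 1. Whether groups of mice were independent litters is not stated. The p-values draw on the spread between these 3 libraries a group and on dispersions shared across the genes tested, so they do not measure 1 gene's own spread alone. All value columns were used.

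The 8 genes and all lists were chosen with earlier results of these data known. Positions and exon lengths came from GENCODE M21 (GRCm38). Differential expression used edgeR 4.0.16 in R 4.3.3 (filterByExpr, TMM, robust quasi-likelihood F test, tissue as the only term), adjusted by Benjamini-Hochberg over 13572 genes at a threshold of 0.05. The study's methods state no test for this comparison. SEs came from the F statistic. CPM used the library total. A bound for a gene at the floor in a whole group took the mean of its libraries' floors. Alternatives were 4 scalings, DESeq2 1.42.0, limma 3.58.1 voom, 2 filters, non-robust dispersions, drawn-down depth, a threshold of 0.01, leaving out each library and, chosen after seeing the data, the column letter as a block.

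Named were the 8 genes, in each list of over 10 genes at most the 6 of highest mean CPM plus *Syk*, *Ms4a2*, *B2m*, *Cd247*, *Hcst*, *Ptpn6* and *Inpp5d*, and the 5 genes of nearest profile to each adaptor. *Lyn*, the defining markers *Foxp3* and *Cd4*, and any gene named as 1 of few called or absent fell outside that rule. The lists cover further Fc-binding genes, receptors that pair with the adaptors, other ITAM chains, signalling below them, ITIM receptors and phosphatases (25 of 27 matched, and *Lilrb4a* and *Lilr4b* are not analysed here), antibody constant genes, and markers of 11 cell types. They share genes: *Siglech*, *Ncr1*, *Ms4a2*, *Lck* and the CD3, zeta and CD79 chains stand in 2 lists each.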

Additional observations from a re-analysis of the deposited data

How the results depend on the processing

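In every one of 17 alternatives 2 to 4 of the 8 genes were called higher and none reversed. *Fcer1g* and *Fcgrt* kept their call and direction in all 17, with log2 fold changes of 6.38 to 13.11 and 7.42 to 14.89. With limma voom *Fcgr3* had 2.75 (adjusted p = 0.459) and *Tyrobp* 3.95 (adjusted p = 0.0494). *Tyrobp* lost its call with upper quartile scaling (13.78), with no filter (5.57), drawn down to the smallest total (5.44), at a threshold of 0.01 (5.68) and without any 1 SDLN library, and ran from 4.18 to 6.14 over the single omissions. Over all its alternatives its adjusted p was 9.94e-06 to 0.199. *Fcgr3* gained a call with DESeq2 (8.18) and without skin Treg C, ran from 6.38 to 8.38 over the omissions and had adjusted p of 1.58e-05 to 0.459. It was not tested with at least 10 counts in every library, a filter that its single count in skin Treg C does not pass. Upper quartile scaling moved the median over all genes from -2.21 to -1.24 and turned the sign of *Rac2* (5.98), *Cd3d* (4.39), *Cd3g* (6.02), *Cd247* (6.23) and *Ighm* (5.63), none of them called there. *B2m*, near 0, turned sign with it (6.55), with DESeq2 size factors and DESeq2 (0.05 in both) and with library size only (0.02), and ran from -0.37 to 0.10 over the omissions, never called. Why was not tested. *Cd300ld* was called in 8 of 16 alternatives that tested it, *Ccr2* in 9 of 17, *Rac2* in 9 of 17, *Ighm* in 11 of 17 and *Lyn* in 6 of 17, while *C1qc* and *Lyz2* were called in 17 of 17 and *Clec4a2* in 16 of the 16 that tested it. *Cd3d* passed in 6 of 17 and *Cd3g* in 5 of 17.

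Over all genes 141 were higher and 6142 lower, against 404 and 6488 with DESeq2, 77 and 6376 with no filter, 61 and 4657 at a threshold of 0.01, 128 and 4014 drawn down, and 81 and 9 of the 1396 genes with at least 10 counts in every library, a filter that drops genes at 0 in skin. Without 1 library each, 71 to 324 were higher and 4983 to 7787 lower. Among the lists, receptors that pair with the adaptors had 0 to 3 called higher in place of 1, the other ITAM chains 0 to 4 lower in place of 1, signalling genes 0 to 2 higher in place of 0 and 0 to 15 lower in place of 11, and inhibitory genes 0 to 3 higher in place of 1 and 0 to 11 lower in place of 7. Depth limits skin Treg A most, where the floor of 3 counts is 0.800 CPM.

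The column letters A to C recur in both tissues, and no source says that a letter marks shared mice. A fit with the letter as a replicate block, chosen after seeing the data and with 2 residual degrees of freedom, called 0 of the 8 genes, with log2 fold changes of 6.66 for *Fcer1g* (adjusted p = 0.187), 4.79 for *Tyrobp* (adjusted p = 0.415), 7.98 for *Fcgrt* (adjusted p = 0.0584) and 6.34 for *Fcgr3* (adjusted p = 0.236). It did not call *Cd300ld*, *Clec4a2* or *C1qc* either (adjusted p of 0.0863, 0.0549 and 0.0535), *B2m* turned sign (0.01), and over all genes 61 were higher and 5633 lower. Deviations from the tissue means of log2(CPM + 1) correlated at 0.05, -0.01 and 0.09 in pairs A, B and C over 13572 genes, and not every library correlated best with its own letter. With 3 libraries a tissue, these correlations cannot decide whether the letters mark pairs. The study's methods describe skin and nodes of 9-day-old mice pooled into a total of 3 samples, which does not settle it. Whether the libraries were paired is thus not known, and the main fit has no letter term.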
